A study of Mus musculus with 8 samples.

Results

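The collagen and matrix genes examined here are the 40 collagen chains carried by the array and 12 other genes of connective tissue cells, 52 genes of the 30789 gene symbols and 114 of the 45281 probes. A collagen chain was taken by its symbol (Col, a number, a, a number), and the 12 others are *Bgn*, *Dcn*, *Fbln1*, *Fbn1*, *Fstl1*, *Mgp*, *Pdgfra*, *Pdgfrb*, *Sparc*, *Lum*, *Thy1* and *Postn*. The choice is by symbol, with no measured value in the rule. RNA came from macrophages that thioglycollate broth had drawn into the peritoneal cavity of C57/BL6 mice at 8 weeks of age. One group of 4 samples was incubated with acetylated LDL (Ac-LDL), a modified lipoprotein that macrophages take up to become foam cells, at 120 μg/ml for 24 h, and the other group of 4 samples was mock treated (control). Each sample was hybridized to its own Illumina bead array, with replicates 1 and 2 of both groups on slide 1 and replicates 3 and 4 on slide 2, so that the slide and the replicate numbers cannot be told apart. The labels call the samples biological replicates and do not say whether each came from its own mice, and p-values measure only the spread between these samples. According to the study's methods for peritoneal macrophages, cells that did not adhere were washed away and the medium contained L-929 conditioned medium, L-929 being a mouse fibroblast line.

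Collagens are trimers of chains that cells of connective tissue secrete. The fibrillar types build the cables of tendon, skin and scar, type IV forms the net of basement membranes, type VI forms beaded microfilaments around cells, and the fibril-associated types sit on the surface of fibrils. Small leucine-rich proteoglycans such as decorin (*Dcn*), biglycan (*Bgn*) and lumican (*Lum*) bind to collagen fibrils and shape them. Fibroblasts, smooth muscle cells and mesothelial cells, the lining of the peritoneal cavity, are the usual producers, whereas macrophages mainly take up and degrade collagen.

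A probe was counted as detected on an array where its detection p-value, a rank against the negative-control beads of that array, was at most 0.05. Of the 114 probes, 41 were detected on all 8 arrays, 12 on 4 to 7 arrays, 10 on 1 to 3 arrays and 51 on none, and each array detected 48 to 55 of them. Detection on at least 4 arrays was required for a test, which 53 probes of 35 genes met (46.5% of the probes, beside 37.8% of all probes on the array). The array as a whole detected 36.8% to 38.5% of its probes per sample, with a median of 43 or 44 beads behind an intensity.

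Of the 11 fibrillar collagens 10 were tested, and *Col5a3* was detected on 1 array. All 3 type VI genes (*Col6a1*, *Col6a2* and *Col6a3*), which encode the chains of the beaded filaments, were tested. Of the 9 basement membrane and network collagens, 6 were tested (*Col4a1*, *Col4a2*, *Col4a5*, *Col4a6*, *Col8a1* and *Col8a2*), and *Col4a3*, *Col4a4* and *Col10a1* were detected on no array. *Col10a1* is the collagen of hypertrophic cartilage, and *Col4a3* and *Col4a4* are chains of the kidney filter. Of the 9 fibril-associated genes, *Col9a1*, *Col12a1* and *Col16a1* were tested, *Col20a1* was detected on 2 arrays, and *Col9a2*, *Col9a3*, *Col14a1*, *Col19a1* and *Col22a1* on none. *Col7a1*, the chain of the anchoring fibrils of skin, and *Col18a1*, the source of endostatin, were tested. *Col15a1* and *Col28a1* were detected on no array. None of the 4 transmembrane collagens could be tested, *Col25a1* being detected on 3 arrays and *Col13a1*, *Col17a1* and *Col23a1* on none. Among the 12 other genes, *Postn*, which encodes the secreted adhesion protein periostin, was the one detected on no array. An undetected probe gives only an upper bound on its transcript and does not show that the transcript was absent.

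For each gene, values below are those of its brightest tested probe unless another is named. This probe was detected on all 8 arrays for 28 genes, and on 4 to 7 arrays for *Col2a1*, *Col7a1*, *Col9a1*, *Col11a1*, *Col11a2*, *Col27a1* and *Pdgfrb*. The deposited intensities, on a linear scale, ran from 8319.6 to 11984 over the 8 arrays for *Dcn*, from 6099.8 to 8244 for *Bgn* and from 5773 to 8666 for *Sparc*, which encodes a collagen-binding glycoprotein of bone and healing tissue. They ran from 2104 to 3444 for *Mgp*, an inhibitor of calcification, from 1146 to 1879 for *Col5a1* and from 812 to 1171 for *Col1a1*. The median intensity over all probes was 42.5 to 46.4 per array. These genes were therefore measured far above the level of an undetected probe in every sample. *Col11a1* at 46.2 to 56.3 and *Col27a1* at 49.1 to 57.9 stood close to that median. The brightness of a probe depends on its own sequence, and the intensities of different genes are not compared here.

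The arrays held transcripts of several cell types, and in such bulk samples fewer cells of a type and less RNA per cell cannot be told apart. Of 10 macrophage markers on the array, 9 were detected on all 8 arrays and *Msr1*, by its probe, on none. Of 9 fibroblast markers that are not among the 52 genes, 5 were tested, and *Pi16* and *Dpt*, which mark fibroblasts of many tissues, were detected on no array. Of 8 mesothelial markers 6 were tested, and of 8 smooth muscle and pericyte markers 4. Of 7 endothelial markers, *Vwf* and *Egfl7* were detected on all 8 arrays and tested, *Kdr* was detected on 1 array, and *Cdh5*, *Tek*, *Pecam1* and *Cldn5* on none. No adipocyte marker was tested. Which cells supplied the collagen transcripts is not given by these arrays.

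The samples were first compared between the slides. Intensities were background corrected, quantile normalized and placed on the log2 scale, and slide 2 (4 arrays) was compared with slide 1 (4 arrays) with limma's moderated test over all 17122 tested probes, a probe being called at a Benjamini-Hochberg adjusted p under 0.05. Between the slides, 15 member probes were called lower on slide 2 (28.3% of the 53 tested), where 11.9% of all tested probes were called lower. In the other direction 2 member probes were called higher (3.77%), where 11.7% of all were. Calls in either direction were made for 17 member probes (32.1%) and for 23.6% of all probes. The median difference, slide 2 minus slide 1 on the log2 scale, was -0.12 over the member probes and -0.02 over all probes, and 66.0% of the member probes and 52.7% of all probes lay below 0. Among probes detected on all 8 arrays, 16 of 41 members were called, 14 of them lower, beside 25.0% of all such probes.

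By their brightest probes, 9 of the 35 genes were called lower on slide 2 (*Lum*, *Col6a2*, *Col24a1*, *Col6a3*, *Col6a1*, *Fbln1*, *Col5a1*, *Col1a1* and *Sparc*) and 1 higher (*Mgp*). All 3 type VI collagens were called lower. Of the 10 fibrillar genes tested 3 were called lower, and of the 11 non-collagen genes tested 3 lower and 1 higher. No gene was called among the 6 basement membrane and network collagens, the 3 fibril-associated genes, *Col7a1* or *Col18a1*. The slides did not overlap for 9 genes, 8 lower and 1 higher on slide 2, a separation that 24.2% of all tested probes had.

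These counts rest on arrays that cannot be taken as fully independent, because a control and an Ac-LDL array share each replicate number. With slide and treatment fitted, the consensus correlation between arrays of a number was 0.062. With the mean of each number taken as 1 sample, 2 against 2, the count fell to 11 member probes (20.8%, 10 of them lower), beside 13.9% of all probes, and *Col6a3*, *Sparc* and *Mgp* were no longer called by their brightest probes (limma adjusted p = 0.0863, 0.0785 and 0.0699). With the control arrays alone 9 member probes were called (17.0%), all lower, beside 18.6% of all probes called in either direction. The share of all probes called lower was not computed for the control arrays. With the Ac-LDL arrays alone the member count was 0, where 41 of all probes were called.

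**Figure D1:**
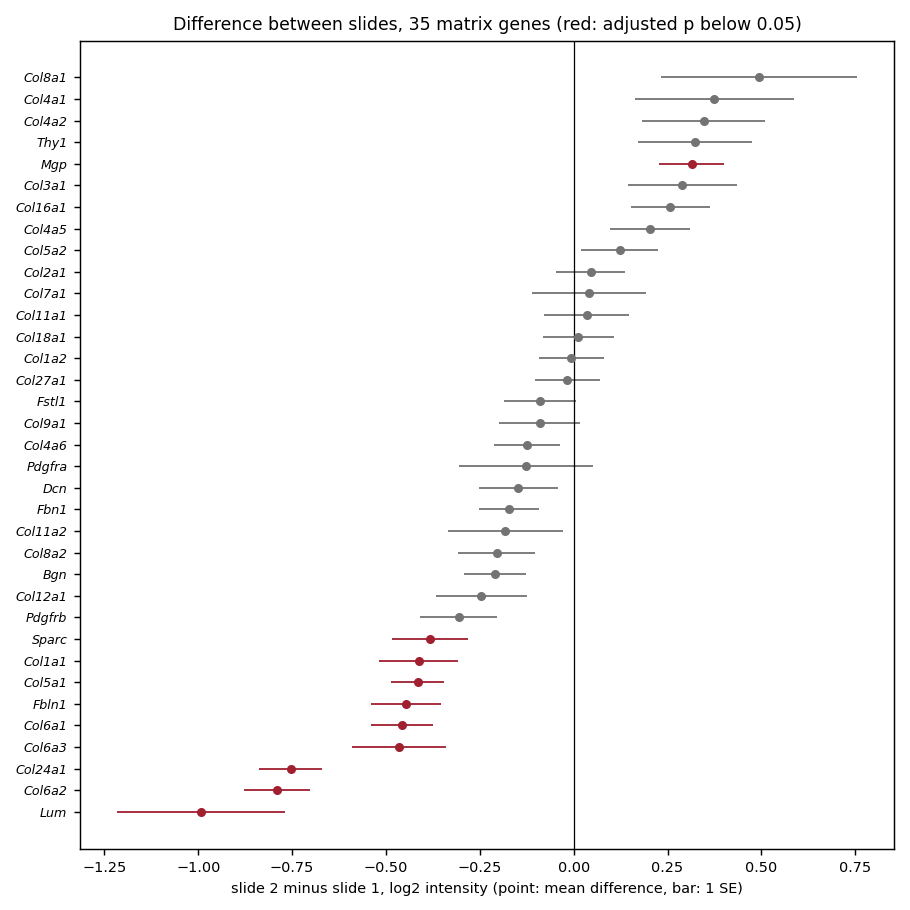
Difference between slides for each of the 35 tested genes, slide 2 minus slide 1 in log2 intensity (horizontal axis), with points for the mean difference of 4 against 4 arrays, bars for 1 standard error and red for an adjusted p under 0.05. The 9 red genes left of 0 run from -0.99 (*Lum*) to -0.38 (*Sparc*), and *Mgp* at 0.31 is the only red gene to the right.

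*Lum* encodes lumican, a proteoglycan that spaces collagen fibrils in the cornea and in connective tissue. Its log2 intensity on slide 1 was 8.60 and 9.42 in the controls and 8.93 and 9.68 with Ac-LDL, and on slide 2 it was 7.58 and 8.36 in the controls and 8.35 and 8.36 with Ac-LDL. Every array of slide 2 lay below every array of slide 1, with control replicate 3 the lowest. The means were 9.16 ± 0.48 (SD, n = 4) and 8.16 ± 0.39 (SD, n = 4), 1.99-fold higher on slide 1, a log2 difference of -0.99 (standard error 0.22, limma adjusted p = 0.0121). The call held when any 1 array was left out. It was lost with no detection filter and with the control or the Ac-LDL arrays alone (limma adjusted p = 0.0681, 0.0678 and 0.124). A second *Lum* probe differed by -0.75 (limma adjusted p = 0.0292). The first 30 bases of both probes, each of 50 bases, are given to show that they are separate stretches of the transcript, the brighter starting at position 1002 and the dimmer at position 1190. The deposited annotation, which names no genome build, places the brighter one on chromosome 10 from 97034593 to 97034642, plus strand.
Lum ILMN_3001540: gatcaagcatctgcgcttggatggcaatcc
Lum ILMN_2773259: aatatccttctcgttgctggtggtattact

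*Col6a1*, *Col6a2* and *Col6a3* encode the 3 chains that join into type VI collagen. *Col6a1* read 10.35 and 10.31 in the controls and 10.62 and 10.53 with Ac-LDL on slide 1, against 10.03 and 9.81 in the controls and 10.14 and 10.00 with Ac-LDL on slide 2. The slides did not overlap, and slide 1 was 1.37-fold higher, a log2 difference of -0.46 (standard error 0.08, limma adjusted p = 0.0048). A second probe was also called (-0.32, limma adjusted p = 0.0454), whereas the last probe, detected on 4 arrays with intensities of 41.2 to 56.8, differed by 0.20 without being called. *Col6a2* read 7.26 and 7.38 in the controls and 7.43 and 7.31 with Ac-LDL on slide 1, and 6.34 and 6.59 in the controls and 6.68 and 6.60 with Ac-LDL on slide 2. This was the lowest adjusted p of the 35 genes (limma adjusted p = 0.000779), with slide 1 higher by 1.73-fold and a log2 difference of -0.79 (standard error 0.09). Its second probe differed by -0.37 (limma adjusted p = 0.0286). *Col6a3* read 8.70 and 8.38 in the controls and 8.999 and 8.65 with Ac-LDL on slide 1, and 8.23 and 7.98 in the controls and 8.52 and 8.14 with Ac-LDL on slide 2. Here the slides overlapped, since Ac-LDL replicate 3 on slide 2 lay above control replicate 2 on slide 1. The difference of -0.47 (standard error 0.13, limma adjusted p = 0.0248) was lost without control replicate 1, Ac-LDL replicate 1, control replicate 4 or Ac-LDL replicate 4 (limma adjusted p = 0.0777, 0.0719, 0.0744 and 0.0683).

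The 250 bases before the annotated starts of *Col6a1* and *Col6a2* are shown because these genes, which lie near each other on chromosome 10, differed between the slides in the same direction. They are RefSeq sequence of build GRCm38.p6, both on the minus strand, at chr10:76726045-76726294 for *Col6a1* and chr10:76623631-76623880 for *Col6a2*. Capitals mark any match, on either strand, to the CAAT box (searched as CCAAT), the TATA box (searched as TATAAA) or the core of the GC box (searched as GGGCGG). *Col6a1* held none of them and *Col6a2* held GGGCGG once, on the reverse strand, with no match overlapping another.
Col6a1: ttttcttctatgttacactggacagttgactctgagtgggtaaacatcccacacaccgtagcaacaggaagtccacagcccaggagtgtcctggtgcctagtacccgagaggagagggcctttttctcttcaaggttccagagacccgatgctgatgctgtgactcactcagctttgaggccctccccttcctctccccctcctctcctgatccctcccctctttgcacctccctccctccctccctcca
Col6a2: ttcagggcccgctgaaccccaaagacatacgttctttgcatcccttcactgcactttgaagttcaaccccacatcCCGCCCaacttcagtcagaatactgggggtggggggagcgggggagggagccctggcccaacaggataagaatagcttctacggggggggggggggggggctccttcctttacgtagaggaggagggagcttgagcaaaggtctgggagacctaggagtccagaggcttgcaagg
A promoter window was found for 39 of the 52 genes. GGGCGG was present before the start of 22 of these 39, and of 35.4% of the 27025 genes in the promoter table. CCAAT was present in 12 of 39 (37.5% of all) and TATAAA in 6 of 39 (14.3% of all). A match of letters is a description and not a binding site.

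The 3 fibrillar genes called were *Col24a1*, *Col5a1* and *Col1a1*. *Col24a1*, a minor fibrillar chain found in developing bone and cornea, read 7.25 and 7.15 in the controls and 6.91 and 6.99 with Ac-LDL on slide 1, and 6.26 and 6.45 in the controls and 6.34 and 6.25 with Ac-LDL on slide 2. All 4 arrays of slide 1 were higher, by 1.69-fold, a log2 difference of -0.75 (standard error 0.09, limma adjusted p = 0.000784). Its 3 tested probes were all called, the others at -0.57 and -0.51. *Col5a1*, whose chain starts the assembly of type I fibrils, had the tightest values of the called genes. It read 10.65 and 10.66 in the controls and 10.65 and 10.63 with Ac-LDL on slide 1, and 10.21 and 10.22 in the controls and 10.27 and 10.22 with Ac-LDL on slide 2, a difference of -0.42 (standard error 0.07, limma adjusted p = 0.0035). *Col1a1*, the main chain of type I collagen, read 9.96 and 10.32 in the controls and 9.98 and 10.06 with Ac-LDL on slide 1, and 9.54 and 9.58 in the controls and 9.79 and 9.76 with Ac-LDL on slide 2. The slides did not overlap (-0.41, standard error 0.11, limma adjusted p = 0.0199), but the call was lost without control replicate 3 or control replicate 4 (limma adjusted p = 0.0682 and 0.0597). *Col1a2*, the partner chain of *Col1a1* in type I collagen, averaged 9.33 ± 0.16 (SD, n = 4) on slide 1 and 9.32 ± 0.17 (SD, n = 4) on slide 2, a difference of -0.01 (limma adjusted p = 0.964). The difference between these 2 genes was not itself tested.

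The first bases of the *Col24a1* and *Col6a2* probes are given as the sequences behind the smallest adjusted p values. The deposited annotation places the *Col24a1* probe on chromosome 3 from 145214886 to 145214935, plus strand, and the *Col6a2* probe at position 3146 of its transcript.
Col24a1 ILMN_1231275: agcctgttgttcatctgttacaagcatact
Col6a2 ILMN_1216661: cagcttctttgacaggttcatccgctggat

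*Fbln1* encodes fibulin-1, a glycoprotein of basement membranes and elastic fibres. It read 7.64 and 7.74 in the controls and 7.70 and 7.65 with Ac-LDL on slide 1, and 7.07 in both controls and 7.36 and 7.45 with Ac-LDL on slide 2. The slides did not overlap, and the difference was -0.45 (standard error 0.09, limma adjusted p = 0.0083), with a second probe at -0.58 (limma adjusted p = 0.0028). *Sparc* read 12.93 and 13.09 in the controls and 12.90 and 13.08 with Ac-LDL on slide 1, and 12.41 and 12.71 in the controls and 12.57 and 12.78 with Ac-LDL on slide 2. Every array of slide 1 was higher, by 1.30-fold (-0.38, standard error 0.10, limma adjusted p = 0.0221), and the call was lost without control replicate 2, Ac-LDL replicate 2 or control replicate 3 (limma adjusted p = 0.0711, 0.0512 and 0.0736). *Mgp*, the gene of matrix Gla protein, read 11.31 and 11.18 in the controls and 11.24 and 11.28 with Ac-LDL on slide 1, and 11.46 and 11.44 in the controls and 11.79 and 11.58 with Ac-LDL on slide 2. It was the only one of the 35 genes called higher, 1.24-fold on slide 2 (0.31, standard error 0.09, limma adjusted p = 0.0274). The *Mgp* call was lost when any 1 of 5 arrays was left out, namely Ac-LDL replicate 1, control replicate 2, Ac-LDL replicate 2, control replicate 3 or Ac-LDL replicate 3 (limma adjusted p = 0.0726, 0.0710, 0.0596, 0.0594 and 0.0506).

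**Figure D2:**
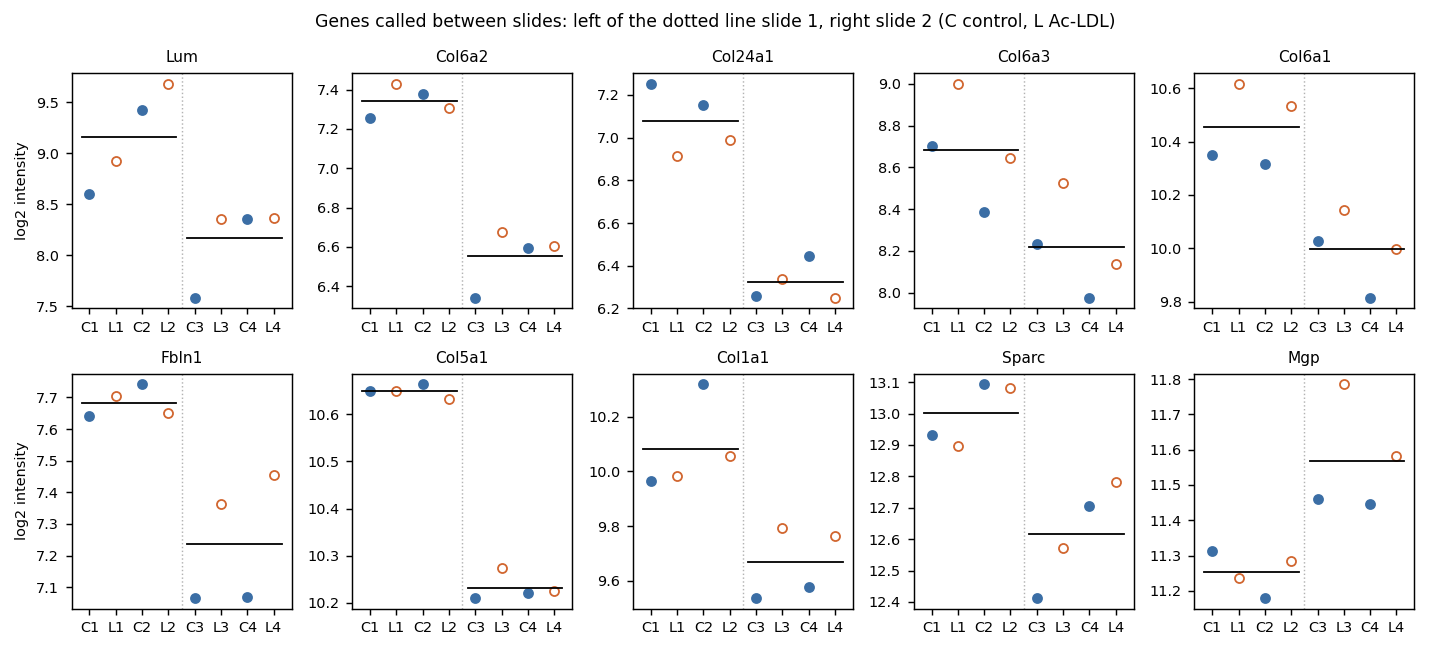
Log2 intensity (vertical axis, a separate scale in each panel) on the 8 arrays for the 10 genes called between the slides, with filled points for control and open points for Ac-LDL arrays, C1 to C4 and L1 to L4 by replicate number, and black lines for the mean of each slide. Slides separate in 9 panels, and in that of *Col6a3* the arrays overlap.

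The 25 genes not called between the slides differed by -0.31 (*Pdgfrb*, limma adjusted p = 0.0535) to 0.49 (*Col8a1*), 13 of them lower and 12 higher on slide 2. *Pdgfrb* encodes a receptor for platelet-derived growth factor that marks pericytes. *Bgn* differed by -0.21, *Fbn1*, the gene of the microfibril protein fibrillin-1, by -0.17, *Dcn* by -0.15 and *Fstl1*, a secreted glycoprotein gene, by -0.09. *Col8a1*, the chain of a network collagen of vessel walls, read 6.30 and 5.31 in the controls and 5.97 and 4.83 with Ac-LDL on slide 1, and 6.40 and 6.59 in the controls and 5.53 and 5.88 with Ac-LDL on slide 2 (0.49, standard error 0.26, limma adjusted p = 0.196). Its arrays varied more on both slides than those of the other collagens named here, and the difference was 0.26 without control replicate 2, 0.30 without Ac-LDL replicate 2 and 0.76 without Ac-LDL replicate 1, where it was called (limma adjusted p = 0.0415). *Col4a1* (0.37) and *Col4a2* (0.35) were also not called, and each was 0.21 without Ac-LDL replicate 3. The smallest differences were those of *Col1a2*, *Col18a1* (0.01), *Col27a1* (-0.02), *Col11a1* (0.03), *Col7a1* (0.04) and *Col2a1* (0.04).

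Probes of *Sparc* and of *Col3a1*, the gene of the fibrillar type III collagen that accompanies type I in soft tissue, gave unlike values. For *Sparc*, the brightest probe starts at position 1570 of the annotated transcript and was called lower on slide 2. A probe at position 80, annotated as specific to 1 isoform, differed by -0.16 (limma adjusted p = 0.304), and a probe at position 2006 by 0.36 in the opposite direction (limma adjusted p = 0.107). This last probe read 9.75 and 9.48 in the controls and 9.41 and 9.65 with Ac-LDL on slide 1, and 9.91 and 10.23 in the controls and 9.46 and 10.15 with Ac-LDL on slide 2. Its slides overlapped through Ac-LDL replicate 3. For *Col3a1*, the brightest probe starts at position 4642 and differed by 0.29 (limma adjusted p = 0.174), while a probe at position 268 was called higher on slide 2 (0.64, standard error 0.16, limma adjusted p = 0.0187). That probe read 6.49 and 6.90 in the controls and 6.19 and 6.34 with Ac-LDL on slide 1, and 6.97 and 7.08 in the controls and 7.47 and 6.95 with Ac-LDL on slide 2, all of slide 2 lying above slide 1. Both *Col3a1* probes were thus higher on slide 2, and the *Sparc* probes were divided. The difference between probes of a gene was not tested. The first 30 bases of each are shown as the stretches behind these values. The annotation places the brightest *Sparc* probe on chromosome 11 from 55238389 to 55238438, minus strand, and the *Col3a1* probes on chromosome 1, plus strand, from 45405737 to 45405786 and from 45378422 to 45378471.
Sparc ILMN_3136561: acatgacagactcccagcagcccgggacct
Sparc ILMN_3059326: tcccagcatcatgagggcctggatcttctt
Sparc ILMN_1243212: ccatgcaaactctcacagcaatgtgaagag
Col3a1 ILMN_1258629: gaatacaattttttgctgtttcaaccaccc
Col3a1 ILMN_2683958: tgtgactcaggatctgtcctttgcgatgac

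**Figure D3:**
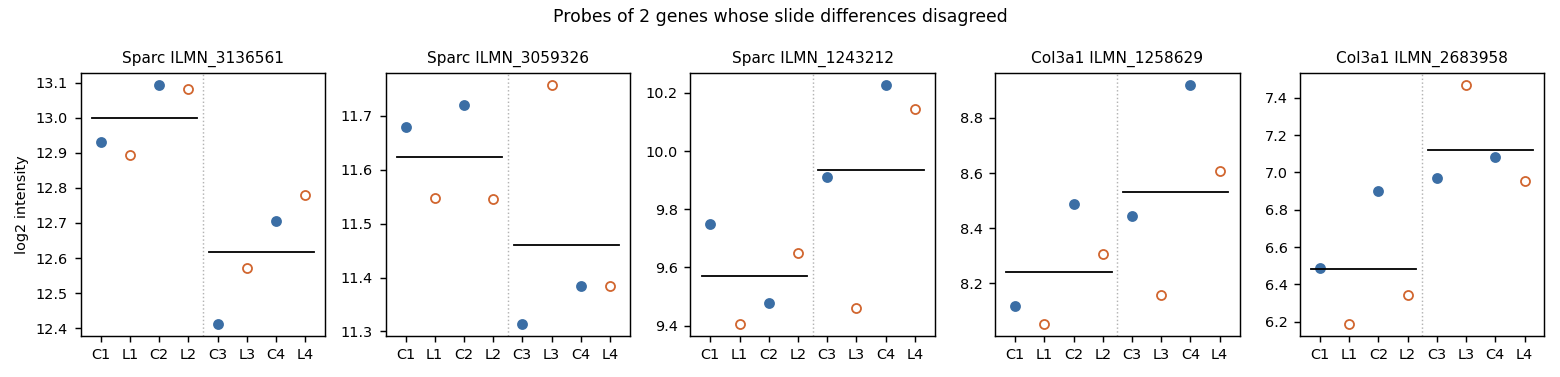
Log2 intensity (vertical axis, a separate scale in each panel) of the 3 *Sparc* and 2 *Col3a1* probes on the 8 arrays, marked by group and replicate number with filled points for control and open points for Ac-LDL, and lines for the mean of each slide. The slide 2 mean is below that of slide 1 by 0.38 and 0.16 for *Sparc* ILMN_3136561 and ILMN_3059326 and above it by 0.36 for ILMN_1243212, and above it by 0.29 and 0.64 for *Col3a1*.

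Of 20 tested genes that process and cross-link collagen, 7 were called lower on slide 2, 1 was called higher and 12 were not called, with a median difference of -0.23 on the log2 scale. Over all tested probes, 11.9% were called lower and 11.7% higher. Those lower were *P4ha2* (-0.32) and *Plod2* (-0.55), which hydroxylate proline and lysine of the chains, the collagen chaperones *Serpinh1* (-0.38) and *Fkbp10* (-0.70), the propeptide proteases *Bmp1* (-0.51) and *Adamts2* (-0.72), and the cross-linking oxidase *Loxl1* (-0.25). *Glt25d1* (0.26), which adds galactose to collagen, was the one called higher. Of 9 tested collagen receptors, *Ddr1* (-0.84), a receptor tyrosine kinase, was called lower, and *Mrc1* (1.07), the mannose receptor of macrophages, and *Lair1* (0.60), an inhibitory receptor of leukocytes, were called higher. Of 25 other matrix genes tested, 5 were called in each direction. *Fbln2* (-0.82), *Efemp2* (-0.36), *Tnxb* (-0.31), *Lamb2* (-0.32) and *Lamc1* (-0.40), which encode proteins of elastic fibres, tenascin-X and laminin chains, were lower. The secreted adhesion proteins *Tgfbi* (1.15) and *Thbs1* (0.68), the TGF-beta binding protein *Ltbp3* (0.64), *Ecm1* (0.47) and *Spp1* (0.47) were higher. *Spp1* encodes osteopontin, which macrophages also secrete.

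Some markers of several cell types differed between the slides, where 11.9% of all tested probes were called lower and 11.7% higher. Of 9 tested macrophage markers, 4 were called higher on slide 2 (*Emr1* 1.19, *Itgam* 1.01, *Csf1r* 0.79 and *Cd14* 0.58) and 0 lower. The summed linear level of the 9 was 66804 to 70971 on slide 1 and 74470.3 to 77439 on slide 2. The brightest probes weigh most in such a sum, here those of *Lyz* (0.04) and *Lyz2* (0.14), which were not called. Of 5 tested fibroblast markers outside the 52 genes, 3 were called lower (*Mfap5* -0.53, *Serpinf1* -0.32 and *Loxl1* -0.25, which the maturation list also holds). *Tcf21* (0.26) and *Clec3b* (0.24) went the other way without being called (limma adjusted p = 0.164 and 0.0951). The sums of the 5 were 6119.6 to 7130.3 on slide 1 and 5067 to 5807 on slide 2. Of 4 tested smooth muscle and pericyte markers, 2 were called lower (*Des* -0.85 and *Mylk* -0.50). The sums of 19251 to 32551 and 14412 to 21567 overlap, and their brightest gene, *Acta2* (-0.44), was not called. Of 6 tested mesothelial markers, 1 was called higher (*Krt8* 0.35), and the sums of 4551 to 6199.7 and 4571 to 5078 overlapped. The other mesothelial markers ran from -0.18 (*Krt19*) to 0.40 (*Gpm6a*), none called. Of the 2 tested endothelial markers, *Egfl7* (-0.37) was called lower and *Vwf* differed by 0.43 without being called (limma adjusted p = 0.0621). Of 5 T cell markers only *Lck* was tested. It was detected on 7 arrays, averaged 5.35 on slide 1 and 4.81 on slide 2, and was called lower (-0.54). *Cd3e* was detected on 1 array and *Cd3d*, *Cd3g* and *Cd2* on none. The tested B cell and neutrophil markers were not called. The part of these cell types in the slide difference of the collagen genes was not tested.

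The arrays of 1 replicate number resembled each other within a slide in several of these genes. *Col4a1* and *Col4a2*, whose chains form the common type IV trimer of basement membranes, are the clearest case. *Col4a1* read 9.18 in control and 9.19 in Ac-LDL replicate 1, 8.57 and 8.69 in replicate 2, 9.53 and 9.74 in replicate 3, and 8.87 and 8.997 in replicate 4. Replicates 1 and 3 were thus the higher of their slides in both groups. *Col4a2* read 9.14 and 9.01 in replicate 1, 8.66 and 8.83 in replicate 2, 9.41 and 9.65 in replicate 3, and 8.87 and 9.10 in replicate 4, with the same order within each slide. Replicate 2 minus replicate 1 was -0.56 for *Col4a1* and -0.33 for *Col4a2*, and replicate 4 minus replicate 3 was -0.70 and -0.54. Centred on their own means, the genes differed by at most 0.18 on any array, while their ranges over the arrays were 1.17 and 0.98. This likeness is a description of 8 arrays that share slides and replicate numbers.

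The *Col4a1* and *Col4a2* genes lie head to head, are read in opposite directions, and overlap at their annotated RefSeq starts. The 22 bases from the start of *Col4a2* to that of *Col4a1* are shown because both annotated transcripts share them. These bases are thus upstream of neither start. They are at chr8:11312805-11312826 of build GRCm38.p6, given on the plus strand, on which *Col4a2* is read. Capitals mark GGGCGG.
Col4a1 and Col4a2 starts: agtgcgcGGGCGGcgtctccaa

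The same comparison was made for all genes with an F test of replicate 2 against 1 and of replicate 4 against 3. At an adjusted p under 0.05, 0 of the 53 member probes and 0.0409% of all probes were called. At an unadjusted p under 0.05 it was 13 of the 53 member probes and 1558 of all 17122 (9.1%). *Col4a1* (limma adjusted p = 0.0705) and *Col8a1* (limma adjusted p = 0.0794) had the lowest values. *Thy1*, a surface glycoprotein of fibroblasts and T cells, was lower in replicate 2 than 1 by 0.48 and lower in replicate 4 than 3 by 0.34, with values of 8.03 and 7.92 (control and Ac-LDL) in replicate 1, 7.59 and 7.41 in replicate 2, 8.27 and 8.18 in replicate 3, and 7.84 and 7.94 in replicate 4. *Lum* ran the other way, with 0.79 and 0.39. On slide 2 it read 7.58 and 8.35 (control and Ac-LDL) in replicate 3 and 8.36 and 8.36 in replicate 4, so that only control replicate 3 stood apart. *Pdgfra*, the platelet-derived growth factor receptor of fibroblasts, differed by 0.16 and 0.67, and its values were 10.18 and 9.68 in replicate 1, 10.20 and 9.98 in replicate 2, 9.58 and 9.51 in replicate 3, and 10.20 and 10.23 in replicate 4. With each array shifted to a common median in place of quantile normalization, 8 member probes were called in this F test, beside 249 of all probes (1.45%), so the count of 0 depends on the normalization.

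**Figure D4:**
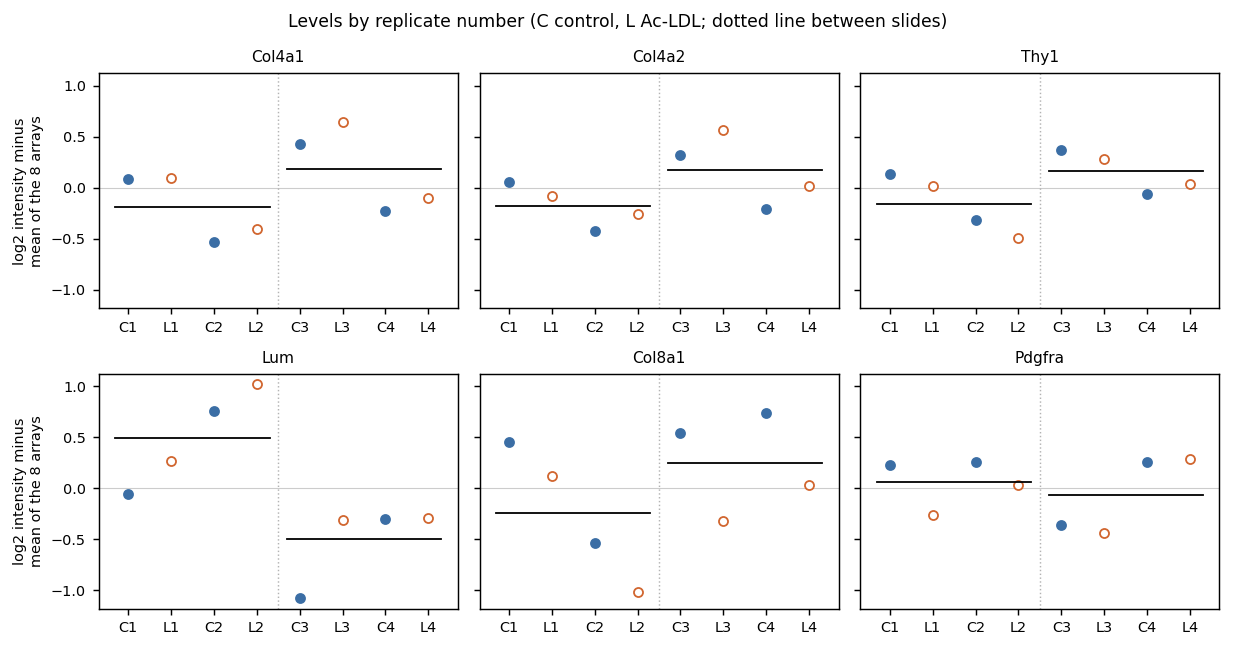
Log2 intensity minus the mean of the 8 arrays (vertical axis, one scale for all panels) for 6 genes, with filled points for control (C), open points for Ac-LDL (L), numbers for replicates, and lines for the mean of each slide. The panels of *Col4a1* and *Col4a2* have the same shape, with replicates 1 and 3 above replicates 2 and 4 of their slides. *Lum* has the reverse shape, on slide 2 only through control replicate 3.

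Ac-LDL was then compared with control, 4 arrays against 4, the question of the study's arrays being which transcripts change as macrophages load cholesterol. The limma test called 0 of the 53 member probes, where it called 0.0409% of all tested probes (7 of 17122). At an unadjusted p under 0.05 there were 3 member probes (of *Col1a2*, *Col9a1* and *Dcn*) and 891 probes, 5.20%, in all, and the lowest adjusted p of a member was 0.887. The methods' unpaired test in place of limma's also called 0 members after Benjamini-Hochberg adjustment. The median log2 difference, Ac-LDL minus control, was -0.04 over the member probes and 0.00 over all probes. By brightest probe, 15 genes had a higher and 20 a lower mean with Ac-LDL. In 12 of 35 genes, by brightest probe, the 4 pairs of the same number ran in 1 direction, beside 21.8% of all tested probes. They ran upwards in 6 (*Col18a1*, *Col4a1*, *Col6a1*, *Col6a3*, *Col8a2* and *Lum*), beside 11.5% of all probes. They ran downwards in 6 (*Col1a2*, *Col3a1*, *Col8a1*, *Col9a1*, *Fbn1* and *Fstl1*), beside 10.3%.

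Of the 6 genes with the largest differences, *Col8a1* came first. Its values are those given above, at 6.30, 5.31, 6.40 and 6.59 in control replicates 1 to 4 and 5.97, 4.83, 5.53 and 5.88 with Ac-LDL. The Ac-LDL array was the lower in each pair, yet the groups overlapped. The difference was -0.60 (standard error 0.31, 95% interval -1.28 to 0.09, limma adjusted p = 0.960), and -0.41 on slide 1 and -0.79 on slide 2. It was -0.36 without Ac-LDL replicate 2 and -0.88 without control replicate 2. With the replicate number as a block its adjusted p was 0.0578 (limma), the lowest of the 35 genes. A second *Col8a1* probe differed by -0.26.

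*Col1a2* was, by brightest probe, the only one of the 35 genes whose groups did not overlap, a separation found for 3.80% of all tested probes. It read 9.47, 9.45, 9.43 and 9.42 in control replicates 1 to 4 and 9.16, 9.23, 9.07 and 9.38 with Ac-LDL. The controls lay close together, and Ac-LDL replicate 4 was nearest to them. The means were 9.44 ± 0.02 (SD, n = 4) and 9.21 ± 0.13 (SD, n = 4), a difference of -0.23 with a 95% interval of -0.44 to -0.03 (exact two-sided permutation test, p = 0.0286, the smallest that 70 assignments can give). It was not called over all probes (limma adjusted p = 0.887). Its partner *Col1a1* differed by 0.05 (95% interval -0.33 to 0.43). The groups also did not overlap for a dimmer *Col12a1* probe, detected on 7 arrays at intensities of 48.1 to 57.0. That probe was higher with Ac-LDL by 0.17 (limma adjusted p = 0.960), whereas the brightest *Col12a1* probe differed by -0.09.

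*Lum* had the largest positive difference over all 8 arrays, 0.34, with a wide 95% interval of -0.52 to 1.20 (limma adjusted p = 0.986). It was 0.04 without control replicate 3, 0.06 without Ac-LDL replicate 2 and 0.65 without control replicate 2. Its pairs differed in the same direction while its level differed more between slides than between groups. *Col6a3* differed by 0.25 (95% interval -0.18 to 0.69), and by 0.11 without Ac-LDL replicate 1, 0.14 without control replicate 4 and 0.40 without Ac-LDL replicate 4. *Col9a1*, a cartilage chain that was detected on 4 arrays, read 4.93, 5.04, 4.65 and 4.84 in control replicates 1 to 4 and 4.47, 4.68, 4.48 and 4.78 with Ac-LDL, a difference of -0.26 near the limit of detection (limma adjusted p = 0.946), or -0.11 at a normexp offset of 50. *Col4a6*, a type IV chain of smooth muscle and skin basement membrane, read 5.77, 5.58, 5.43 and 5.40 in the controls and 5.74, 5.79, 5.81 and 5.72 with Ac-LDL. Those groups overlapped through control replicate 1, and the difference was 0.22 (95% interval -0.01 to 0.45, limma adjusted p = 0.946). The other 29 genes differed by -0.21 (*Col3a1*) to 0.20 (*Col6a1*), with 95% intervals that stayed between -0.72 (*Col24a1*) and 0.70 (*Col6a2*). All 95% intervals given here are from the fit without a block, in which a slide difference counts as spread. For 33 of the 35 genes the 95% interval lay within 1 log2 unit of 0, *Col8a1* and *Lum* being the exceptions. For probes near the background, among them those of *Col7a1*, *Col9a1* and *Col11a1*, a log2 difference understates a change in transcript level. *Dcn* had 4 tested probes, the 3 brighter of which differed by -0.04, -0.10 and -0.08 and the dimmest, at intensities of 80.7 to 112, by 0.25.

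**Figure D5:**
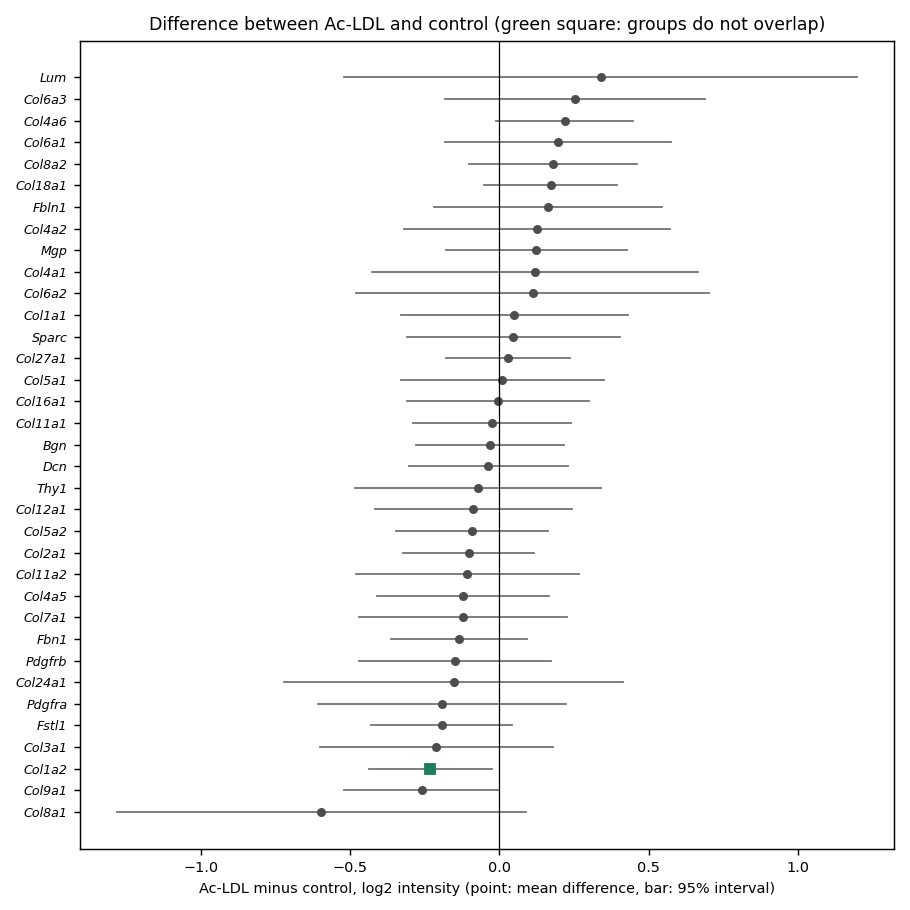
Ac-LDL minus control in log2 intensity (horizontal axis) for the 35 tested genes, with points for the mean difference of 4 against 4 arrays and bars for the 95% interval. Points run from -0.60 (*Col8a1*) to 0.34 (*Lum*), and the green square marks *Col1a2*, whose groups do not overlap.

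The replicate numbers were taken to pair the samples, and the comparison was repeated with them as a block. With the replicate block 0 of the 53 member probes were called, beside 76 of all 17122 probes (0.444%). At an unadjusted p under 0.05 (limma) it was 12 of the 53 member probes and 2371 of all 17122. Blocking on the slide called 0 member probes and 55 of all (0.321%), and 8 of 53 and 2077 of 17122 at an unadjusted p under 0.05 (limma). The Ac-LDL difference was also compared between the slides (a treatment by slide interaction), which called 0 of the 53 member probes and 0% of all probes. At an unadjusted p under 0.05 (limma) that comparison gave 3 of the 53 members and 1435 of all probes (8.38%). Collagen maturation genes, collagen receptors and the other matrix genes gave 0 calls with Ac-LDL, as did every marker list. Control arrays held positions A and D and Ac-LDL arrays B and E on each slide, so that position and treatment cannot be told apart. Replicates 1 and 3 held A and B, and replicates 2 and 4 held D and E. Within a slide, position and replicate number therefore cannot be told apart either. The 4 arrays per group limit the precision of each of these values.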

How the data were processed

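The authors hybridized RNA of 8 macrophage samples to Illumina Mouse WG-6 v2.0 bead arrays and, per the labels, exported the data with BeadStudio. The deposited signal, an intensity, is the mean over a probe's beads on the linear scale, without background subtraction or normalization. The deposited detection p-value ranks a probe against the negative controls (936 implied by its steps). The deposited bead count and bead standard error (the spread of the signal over its beads, as exported) served as checks.

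Intensities were processed with limma 3.58.1 in R 4.3.3 (neqc: normexp with the negative controls inferred from detection p-values, offset 16, quantile normalization, log2). Probes detected (p at most 0.05) on at least 4 of 8 arrays were tested, 17122 probes of 12423 symbols. Groups and slides were compared with lmFit and eBayes, without a block as in the study's unpaired test, and p-values were adjusted by Benjamini-Hochberg over all tested probes. Exact permutation tests used all 70 assignments.

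Each gene was given by its tested probe of highest mean, and other probes where they were called differently or went the other way. Values on each array were given for the 12 largest slide and 6 largest Ac-LDL differences; those of *Mgp*, *Thy1*, *Pdgfra* and 2 further probes of *Sparc* and *Col3a1* were added after the values were seen, as was the F test of replicate numbers within a slide. The genes and lists were chosen with earlier results of these data known. The procedure was tested on simulated data. Alternatives changed the offset, normalization, filter, prior, block or samples.

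Deviations from group means, with the slide difference left in, correlated across probes between arrays of the same number (r = 0.579, 0.479, 0.468 and 0.629). Between different numbers r was 0.188 to 0.447 on a slide and at most -0.318 across slides. The numbers were therefore taken to pair the samples, and the block was an alternative to the unpaired fit. The 1 probe spelled col11a2 fell outside the rule. RefSeq promoters are of build GRCm38.p6.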

Additional observations from a re-analysis of the deposited data

Results flagged for a closer look

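In 2 of the 70 groups of 4 arrays examined (35 genes, control and Ac-LDL), a single array stood far from the others, where chance gives about 3.5 such groups. *Col11a1*, a fibrillar chain of cartilage detected on 5 arrays, read 4.56 in control replicate 1 and 4.84 to 4.87 in the other controls, all near the limit of detection. *Pdgfra*, the fibroblast receptor, read 9.58 in control replicate 3 and 10.18 to 10.20 in the other controls. Ac-LDL replicate 3 was the lowest *Pdgfra* value of its group as well, at 9.51, with the others at 9.68 to 10.23.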

How the results depend on the processing

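The Ac-LDL comparison called 0 member probes in each of the 20 alternatives run, including the replicate block (0), and 0 to 76 over all probes. The interaction called 0 member probes in both of its alternatives. Leaving out 1 array at a time left the Ac-LDL count at 0 and moved the slide count, 17, from 12 to 20. The slide count was 8 with no detection filter (7.02% of 114 member probes, beside 6.79% of all probes), 11 with the mean of each replicate number (20.8%, beside 13.9%), 9 with control arrays alone (17.0%, beside 18.6%) and 0 with Ac-LDL arrays alone (beside 0.239%), the last 3 using fewer samples. It stayed within 1.5 times of 17 in 15 other alternatives, with 16 where the replicate number was a random block. The F test of replicate numbers within a slide, added after seeing the data, called 0 member probes (7 of all probes), and 2 (75 of all) with an offset of 50, 3 (81) without background correction and 8 (249) with a median shift in place of quantile normalization, and the cause was not tested. Of the 13 slide and 6 Ac-LDL differences of single genes recomputed under the alternatives, none reversed; other named genes were not recomputed. Taken over genes and alternatives, a slide call was lost 37 times, and *Col8a1* gained one without Ac-LDL replicate 1. Probes near the background, such as those of *Col9a1*, *Col7a1* and *Col11a1*, have little signal over it.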
